A study of Mus musculus with 4 samples.

Results

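The genes described here encode 7 costimulatory receptors of T cells: Tnfrsf4 (OX40), Tnfrsf9 (4-1BB), Tnfrsf18 (GITR), Tnfrsf1b (TNF receptor 2), Cd27, Icos and Cd28. They were taken by symbol from the gene list of the count matrices, where all 7 of 7 were found among 28692 genes. The study treated C57BL/6 mice bearing B16-F10 tumours, a mouse melanoma line that can be transplanted, with CD8 T cells of the Pmel-1 line on day 3 after tumour implantation. Pmel-1 cells carry 1 transgenic receptor for a melanoma antigen and had been transduced with IRF4-GFP in 1 arm or with the GFP control in the other. On day 14 the transferred cells and the hosts' own CD45+ tumour-infiltrating cells were sorted from both arms and profiled by droplet 3' RNA sequencing. This gave 4 libraries and 1 library per group: transferred cells of the IRF4 arm, transferred cells of the control arm, endogenous cells of the IRF4 arm and endogenous cells of the control arm. All groups shared the strain, the tumour and the transfer of transduced Pmel-1 cells, so no group lacked treatment. The number and age of the mice behind a library and any conditioning of the hosts are not given in the sources used here. With 1 library in each group no difference was tested, and every interval below is a 95% interval for counting error only.

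Receptors of the TNF receptor family have no enzyme activity of their own. When a trimeric ligand on an antigen-presenting cell binds them, they recruit TRAF adaptors that switch on NF-kB and survival genes. CD28 and ICOS belong to the immunoglobulin superfamily and signal through phosphoinositide 3-kinase: CD28 is present on resting T cells and gives the second signal beside the T cell receptor, whereas ICOS, like OX40 and 4-1BB, is induced by activation. OX40, GITR and TNF receptor 2 are also known as abundant receptors of regulatory T cells (Tregs).

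In the mm10 assembly 4 of the 7 genes lie on chromosome 4. Tnfrsf4 spans 156013843 to 156016612 on the plus strand, and Tnfrsf18, at 156026164 to 156028895 on the same strand, begins after a gap of 9551 bases that holds no other protein-coding gene. Tnfrsf9 spans 150914562 to 150946102 on the plus strand and Tnfrsf1b 145213463 to 145246870 on the minus strand. Cd27 lies on chromosome 6 at 125232622 to 125237010 on the minus strand. Cd28, at 60716800 to 60773359, and Icos, at 60977927 to 61000320, lie on the plus strand of chromosome 1 with Ctla4, the gene of an inhibitory relative, between them. Tnfrsf9, Tnfrsf18 and Cd27 overlap Camta1, Gm16008 and Vamp1 on the opposite strand. On their own strand, Icos overlaps the transcript Gm37039 and Cd27 the microRNA gene Mir8113. Reads of overlapping features could be assigned differently by the counting.

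The promoters of Tnfrsf4 and Tnfrsf9 are shown because these were the members whose RNA was most concentrated in few endogenous CD8 T cells. The RefSeq table for GRCm38.p6, from 250 bases before to 50 bases after an annotated start, matched 5 of the 7 genes, with 2 starts for Tnfrsf9. The gene starts of Tnfrsf4 and Tnfrsf9 given above, from another annotation, lie outside these windows. The windows are chr4:156013445-156013744 for Tnfrsf4 and, for Tnfrsf9, chr4:150919905-150920204 and chr4:150927749-150928048, all on the plus strand and read 5' to 3'. Capitals mark matches to an NF-kB motif and to the AP-1 motif TGANTCA.
Tnfrsf4: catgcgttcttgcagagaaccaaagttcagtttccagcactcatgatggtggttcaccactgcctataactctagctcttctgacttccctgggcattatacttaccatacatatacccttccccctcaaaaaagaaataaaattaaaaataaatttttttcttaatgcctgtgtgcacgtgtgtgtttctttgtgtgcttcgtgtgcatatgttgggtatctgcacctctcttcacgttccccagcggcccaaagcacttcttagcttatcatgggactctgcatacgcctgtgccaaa
Tnfrsf9, upstream start: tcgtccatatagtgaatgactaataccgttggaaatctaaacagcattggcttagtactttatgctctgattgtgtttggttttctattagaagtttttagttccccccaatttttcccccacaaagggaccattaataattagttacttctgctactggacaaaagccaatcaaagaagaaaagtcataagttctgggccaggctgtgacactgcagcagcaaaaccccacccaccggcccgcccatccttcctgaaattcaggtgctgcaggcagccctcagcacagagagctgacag
Tnfrsf9, downstream start: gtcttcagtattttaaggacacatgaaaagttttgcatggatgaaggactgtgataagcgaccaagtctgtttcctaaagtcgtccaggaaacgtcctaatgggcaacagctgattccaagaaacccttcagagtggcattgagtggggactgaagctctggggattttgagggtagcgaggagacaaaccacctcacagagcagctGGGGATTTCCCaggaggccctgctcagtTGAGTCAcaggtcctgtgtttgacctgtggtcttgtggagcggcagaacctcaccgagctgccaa
The downstream Tnfrsf9 window held 1 AP-1 match, which begins 15 bases before the start, and overlapping NF-kB matches, the first of which begins 43 bases before it. Both strands were searched. Of 32851 promoters in the table, 7.81% held the AP-1 motif, 4.51% the NF-kB motif and 0.332% both. The NF-kB motif and this pair were not part of the planned search, so the share of the pair is a description only. The composite motifs to which IRF4 binds with ETS or AP-1 partners, GGAA and GAAA with any 2 bases between and TGANTCA and GAAA with any 4 bases between, had no match in the 6 windows of the 5 genes and were present in 2.72% and 0.119% of all promoters. A pair of GAAA with any 2 bases between, found in 3.44% of promoters, had 1 match, in Tnfrsf1b. A match is a run of letters and was not tested as a binding site.

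The libraries held 715 to 6981 barcodes and 16664323 to 94686409 unique molecular identifiers (UMIs), the counts of captured RNA molecules. Cell classes were gated on raw marker UMIs, without using any of the 7 genes, and a class is named "-like" after its markers. Levels are in CPM, counts per 1000000: all UMIs that a gene had in a class, scaled to the UMI total of the class. CD8 T-like cells, with both CD3 and CD8 transcripts, numbered 453 and 1860 among transferred cells in the IRF4 and control arms and 1913 and 637 among endogenous cells. Cd3d stood at 1042 to 1146 CPM in these 4 classes, and their median depths were 14925, 17295, 10573 and 8456 UMIs per cell. Irf4 itself was counted at 27.2 CPM (24.3 to 30.4) in transferred CD8 T-like cells in the IRF4 arm and at 24.7 CPM (23.3 to 26.2) in those of the control arm. Whether a 3' count registers the introduced IRF4 depends on the 3' end of the vector, on which the sources used here say nothing, so this neither checks nor contradicts the labels. In the 2 endogenous libraries 13 kept barcodes were shared, of 20 shared by any pair. The red cell gene Hbb-bs was at 0.3 and 666.6 CPM in endogenous CD8 T-like cells in the IRF4 and control arms, and the myeloid gene Lyz2 at 39.4 and 71.0 CPM; their part in the differences below was not tested.

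Among endogenous cells, Treg-like cells (113 and 58 cells in the IRF4 and control arms) held the highest levels of Tnfrsf4, Tnfrsf9, Tnfrsf18, Cd27 and Icos in both libraries. Tnfrsf4 stood at 1783 CPM (1709 to 1860) and 1228 CPM (1141 to 1319) in Treg-like cells of the IRF4 and control arms. It was next highest in CD4 conventional T-like cells, which have CD4 and no Foxp3 UMI, at 316.5 and 137.6 CPM, and in mature dendritic-like cells at 192.8 and 142 CPM. In the control arm these 2 classes overlapped, and both stood little above CD8 T-like cells at 111.8 CPM (104.8 to 119.2), with a ratio of CD4 conventional over CD8 T-like cells of 1.23 (1.04 to 1.44). Tnfrsf4 was near background in NK-like cells at 3.13 and 5.92 CPM, below every T cell class. Treg-like cells exceeded CD8 T-like cells of the same library 25.8-fold (24.3 to 27.3) in the IRF4 arm, compared with 11-fold (9.96 to 12.1) for the control cells.

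Tnfrsf9 followed another order below the Treg-like cells, which had 1039 and 892.5 CPM. NK-like cells held 174.9 and 207.5 CPM, mature dendritic-like cells 163.1 and 176.6 CPM, and CD8 T-like cells 157.1 and 285.4 CPM. In the control arm CD8 T-like cells stood above the other 2 of these classes. In the IRF4 arm neighbours in the order overlapped, although the ratio of NK-like over CD8 T-like cells was 1.11 (1.04 to 1.19). CD4 conventional T-like cells were lowest of the T cells, at 110.2 and 51.7 CPM. Tnfrsf9 and Tnfrsf4 thus differed in NK-like cells, where the 4-1BB gene in the control arm was at 0.727 times the CD8 level and the OX40 gene at 0.0529 times.

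Tnfrsf18 was highest in Treg-like cells at 1087 and 877.8 CPM and spread over all T and NK classes. CD4 conventional T-like cells had 349.3 and 239.5 CPM, NK-like cells 214.5 and 217.3 CPM, CD8 T-like cells 120.8 and 163.7 CPM and mature dendritic-like cells 113.1 and 119.3 CPM. It was also the member with the most RNA in cDC1-like cells, dendritic cells that cross-present antigen, at 23.9 and 25.6 CPM. B-like cells held 25.3 and 28.7 CPM.

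Tnfrsf1b was the member with the most RNA in monocyte or macrophage-like and neutrophil-like cells. It stood at 195.5 and 184.7 CPM in Treg-like cells and at 156.4 and 129.5 CPM in monocyte or macrophage-like cells, while the 67 neutrophil-like cells of the control arm had 152.4 CPM (97.6 to 226.7). In the control arm Treg-like cells and neutrophil-like cells overlapped, as did neutrophil-like and monocyte or macrophage-like cells. Monocyte or macrophage-like cells exceeded CD8 T-like cells 3.46-fold (3.24 to 3.7) and 2.31-fold (2.1 to 2.55) in the IRF4 and control arms. For the other 6 members the same ratio was at most 0.0591.

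Cd27, Icos and Cd28 were confined to T and NK classes above 20 CPM. Cd27 stood at 410.8 and 341.6 CPM in Treg-like cells and between 150.5 and 211.3 CPM in the other T and NK classes. Icos was at 579.9 and 500.2 CPM in Treg-like cells, 439.1 and 199.2 CPM in CD4 conventional T-like cells, 72.9 and 52.7 CPM in CD8 T-like cells and 37.9 and 40 CPM in NK-like cells. Cd28 broke the order of the others: CD4 conventional T-like cells had 390.8 and 295.8 CPM and Treg-like cells 309.3 and 215.8 CPM, ratios of Treg-like over CD4 conventional cells of 0.792 (0.695 to 0.901) and 0.73 (0.594 to 0.891). CD8 T-like cells followed with 169.6 and 141.9 CPM and NK-like cells with 49.3 and 44.6 CPM. In pDC-like cells, plasmacytoid dendritic cells, Cd28 was at 12.7 and 14.8 CPM.

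**Figure D1:**
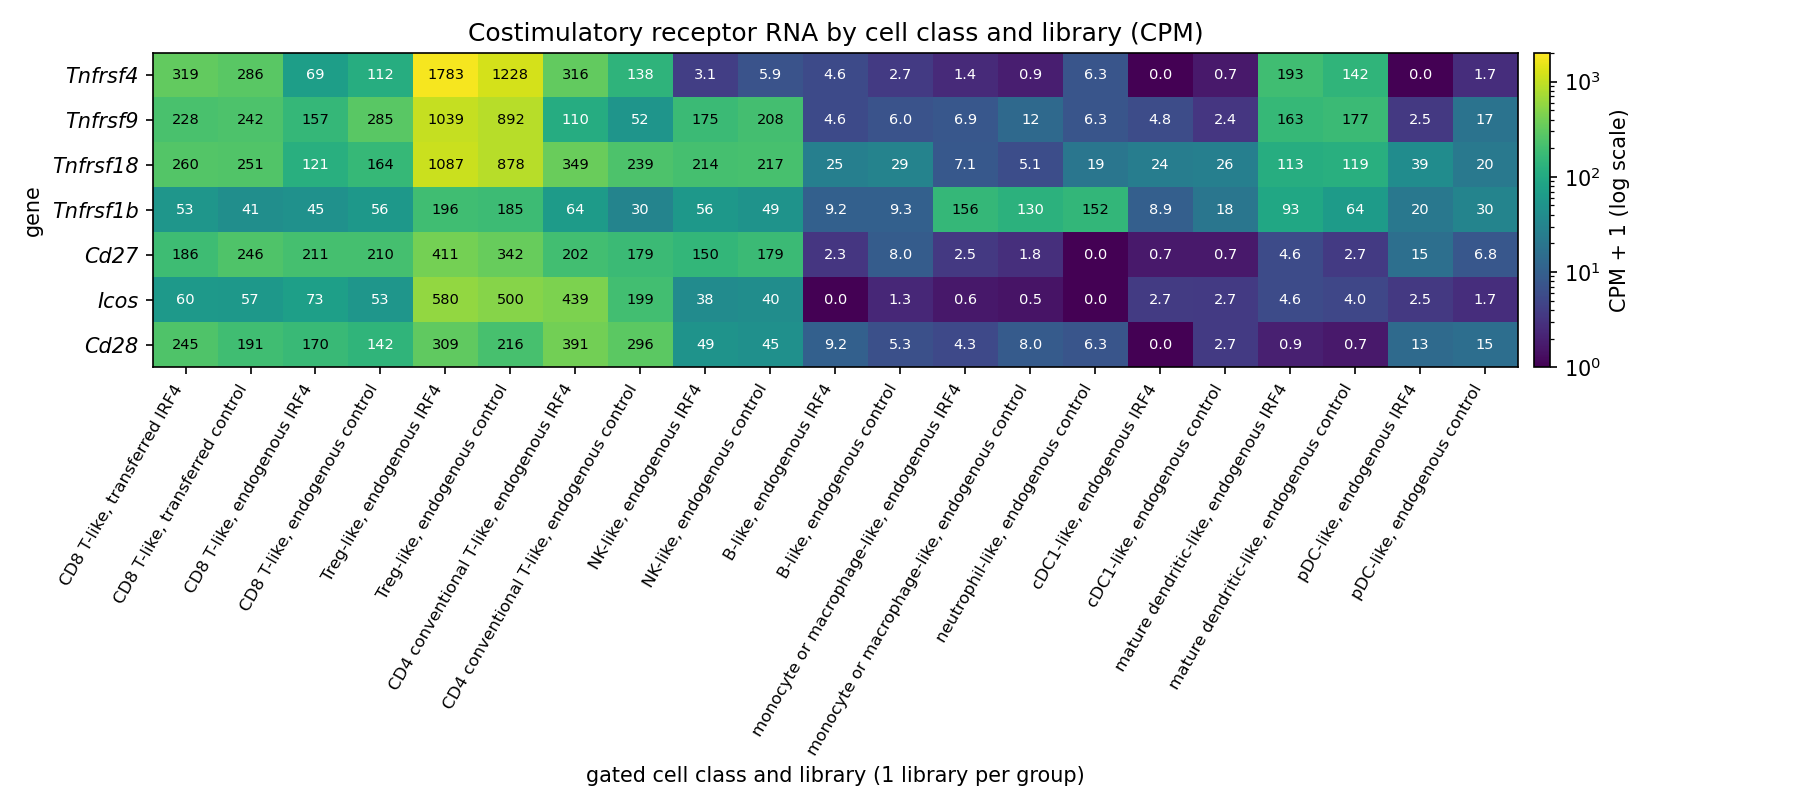
Level of the 7 genes (rows) in each gated cell class and library (columns), as CPM printed in the cells and as colour on a log scale of CPM + 1, with 1 library per group. Treg-like columns are brightest for Tnfrsf4, with 1783 and 1228 CPM, Tnfrsf1b extends to monocyte or macrophage-like columns, with 156.4 and 129.5 CPM, and Cd27, Icos and Cd28 are dark outside T and NK classes.

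Within CD8 T-like cells, Tnfrsf4 and Tnfrsf9 were concentrated in few endogenous cells and less so in transferred ones. The 10% of cells with the most Tnfrsf4 UMIs held 87.3% and 90% of its UMIs in the endogenous IRF4 and control libraries, against 48.3% and 47.5% in the transferred ones. For Tnfrsf9 the same share was 72.8% and 78.1% in endogenous and 50.6% and 46.1% in transferred cells. Cd27, which signals survival in memory and effector T cells, served as a contrast, with 31.9%, 35.3%, 31.6% and 32.4% in the same order. Cd28 lay between 33.7% and 38.6% in all 4 libraries. The concentration of Tnfrsf4 stood apart from that of a gene of like depth: Icos, with 2333 UMIs in the endogenous IRF4 library against 2216 for Tnfrsf4, had 45.6% of its UMIs in the top 10% of cells.

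Few cells accounted for much of the RNA of these genes. In the endogenous control library 50% of the Tnfrsf9 UMIs came from 26 of 637 cells and 50% of the Tnfrsf4 UMIs from 16 cells. In the endogenous IRF4 library the numbers were 83 and 50 of 1913 cells. In the transferred libraries they were 45 and 48 of 453 cells in the IRF4 arm and 211 and 203 of 1860 cells in the control arm. For Cd27 the numbers were 109, 370, 87 and 361 cells in the endogenous control, endogenous IRF4, transferred IRF4 and transferred control libraries.

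**Figure D2:**
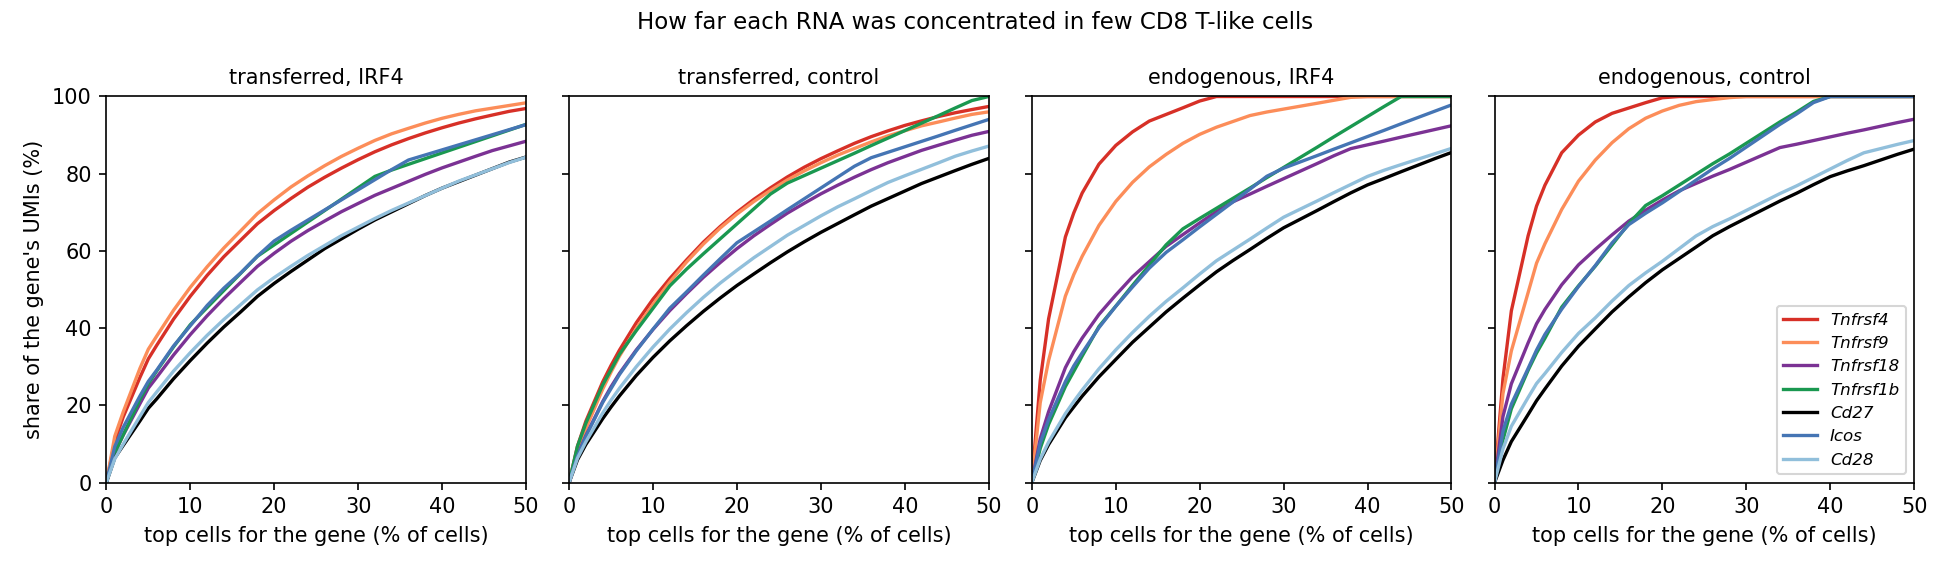
Cumulative share of each gene's UMIs (vertical axis, %) held by the CD8 T-like cells with the most UMIs of that gene (horizontal axis, % of cells), 1 panel per library. In the endogenous panels the Tnfrsf4 and Tnfrsf9 curves rise far above the rest, reaching 87.3% and 72.8% at 10% of cells in the IRF4 arm. In the transferred panels they lie nearer to the other genes but still above Cd27 and Cd28, with Tnfrsf4 at 48.3% and 47.5%.

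Most Tnfrsf4 and Tnfrsf9 UMIs of endogenous CD8 T-like cells lay in cells with RNA of Pdcd1, which encodes the inhibitory receptor PD-1. Cells with a Pdcd1 UMI numbered 1307 of 1913 in the IRF4 arm and 329 of 637 in the control arm. They were far more than the 50 and 16 cells that held 50% of the Tnfrsf4 UMIs, so the split does not identify the cells rich in it. Tnfrsf4 stood at 79.7 CPM in cells with a Pdcd1 UMI and 6.16 CPM in those without in the endogenous IRF4 library, a ratio of 12.9 (8.92 to 19.5), and at 153.6 and 9.83 CPM in the endogenous control library, a ratio of 15.6 (10.4 to 24.5). Tnfrsf9 stood at 177.9 and 31.3 CPM, ratio 5.69 (4.82 to 6.77), and at 390.5 and 29.1 CPM, ratio 13.4 (10.6 to 17.3). Both genes were thus several fold lower in endogenous cells without a Pdcd1 UMI in both arms. Cells with a Pdcd1 UMI were deeper, with medians of 15968 against 6689 UMIs in the IRF4 arm and 11746 against 6987.5 UMIs in the control arm. Among cells of at least 10000 UMIs, an alternative added after seeing the data, the Tnfrsf4 ratios were 18.5 (8.49 to 50.5) and 49.1 (16.7 to 238.3), and the Tnfrsf9 ratios 3.11 (2.49 to 3.93) and 6.78 (5.19 to 9.03). The deep cells without a Pdcd1 UMI, 90 and 58 in the IRF4 and control arms, had only 6 and 3 Tnfrsf4 UMIs. The size of these 2 Tnfrsf4 ratios is therefore poorly determined.

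In transferred cells the contrast by Pdcd1 was smaller than in endogenous cells for Tnfrsf4 and Tnfrsf9 and differed between the genes. Tnfrsf4 was 1.46-fold (1.31 to 1.64) and 2.34-fold (2.17 to 2.52) higher in cells with a Pdcd1 UMI in the IRF4 and control arms. Tnfrsf9 went the other way in the IRF4 arm, at 212.4 CPM with and 332 CPM without a Pdcd1 UMI, a ratio of 0.64 (0.58 to 0.707), and was at 1.06 (1 to 1.12) in the control arm. Among cells of at least 10000 UMIs the Tnfrsf4 ratios were 1.35 (1.19 to 1.52) and 1.59 (1.48 to 1.72). The Tnfrsf9 ratios were 0.528 (0.477 to 0.584) and 0.76 (0.715 to 0.809). Cd27, Icos and Cd28 differed by at most 1.22-fold in either direction in the 4 libraries over all depths, and Tnfrsf1b was 1.28-fold to 1.78-fold higher with a Pdcd1 UMI. Tnfrsf18 was at 1.08 and 1.22 in transferred and at 1.06 and 1.65 in endogenous cells of the IRF4 and control arms. Among the deep cells Icos reached 1.52 (1.27 to 1.83) in the transferred control library and Cd28 1.44 (1.24 to 1.68) in the transferred IRF4 library.

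**Figure D3:**
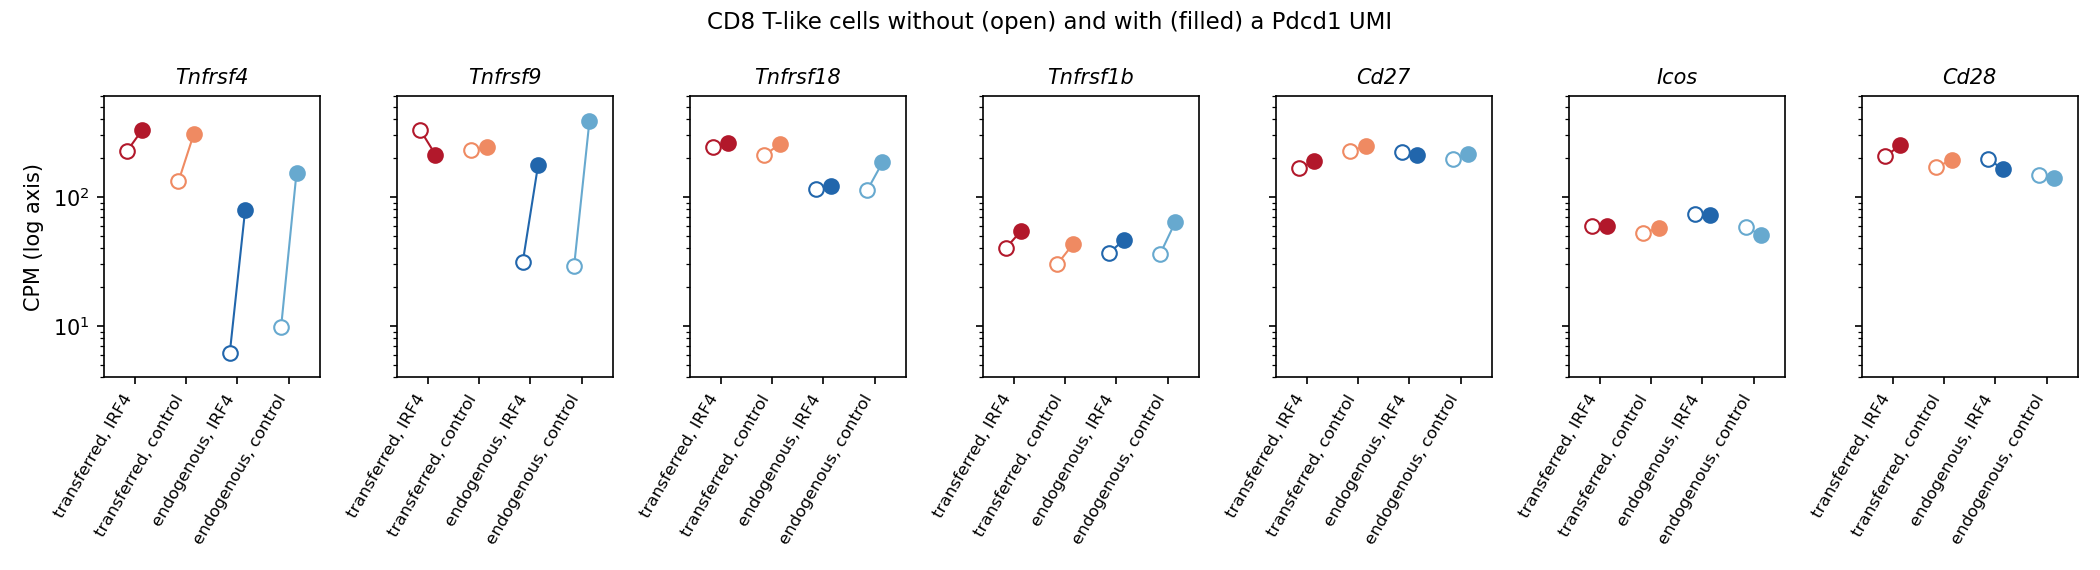
CPM (log axis) of each gene in CD8 T-like cells without a Pdcd1 UMI (open) and with one (filled), by library. The lines for Tnfrsf4 and Tnfrsf9 are steep in endogenous cells, with Tnfrsf4 at 6.16 and 79.7 CPM in the IRF4 arm. They are shallower in transferred cells or, for Tnfrsf9 of the transferred IRF4 library, fall from 332 to 212.4 CPM.

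Split by Tcf7, the 2 endogenous libraries differed. In the endogenous control library Tnfrsf9 was at 63.5 CPM in cells with a UMI of Tcf7, the transcription factor of stem-like T cells, and at 391.1 CPM in cells without, and Tnfrsf4 at 27.7 and 151.9 CPM. The ratios of cells with over cells without a Tcf7 UMI were 0.162 (0.138 to 0.19) and 0.182 (0.142 to 0.231), and among cells of at least 10000 UMIs 0.256 (0.216 to 0.301) and 0.258 (0.195 to 0.335). In the endogenous IRF4 library they were 0.589 (0.546 to 0.636) for Tnfrsf9 and 1.03 (0.93 to 1.13) for Tnfrsf4, nearer to 1 for both genes. Cells with a Tcf7 UMI were shallower there, with a median of 7487 against 14517 UMIs, and among cells of at least 10000 UMIs the ratios were 0.823 (0.759 to 0.89) and 1.49 (1.35 to 1.65). In transferred cells Tnfrsf9 was lower with a Tcf7 UMI as well, at ratios of 0.667 (0.617 to 0.722) and 0.463 (0.444 to 0.484) in the IRF4 and control arms, while Tnfrsf4 was at 0.9 and 1.22. Cd28 was at 0.781 (0.724 to 0.844) in the transferred IRF4 library and at 1.38 (1.29 to 1.48) in the transferred control library, opposite directions in the 2 arms.

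Cells with a UMI of Gzmb, the gene of the cytotoxic protease granzyme B, had more Tnfrsf9 in all 4 libraries. The ratios over cells without one were 1.64 (1.46 to 1.83) and 1.67 (1.6 to 1.73) in transferred and 2.07 (1.87 to 2.29) and 6.02 (5.18 to 7.03) in endogenous cells of the IRF4 and control arms. Among deep endogenous cells they were 1.23 (1.1 to 1.37) and 3.17 (2.69 to 3.75). For Tnfrsf4 the endogenous ratios were 0.966 (0.863 to 1.08) and 4.25 (3.45 to 5.28), and 0.514 (0.459 to 0.577) and 2.43 (1.92 to 3.1) among deep cells. Icos was lower with Gzmb in 3 libraries, at 0.703, 0.727 and 0.712 in the transferred IRF4, transferred control and endogenous control libraries, and at 1.01 (0.907 to 1.14) in the endogenous IRF4 library. Cd27 was lower with Gzmb in both transferred libraries, at 0.671 (0.61 to 0.739) and 0.795 (0.766 to 0.825).

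Cells with a UMI of a cell cycle gene (Mki67, Top2a, Birc5, Cdk1 or Ccnb2) had less Icos in all 4 libraries. The ratios were 0.533 (0.444 to 0.644), 0.669 (0.612 to 0.732), 0.633 (0.577 to 0.695) and 0.589 (0.487 to 0.713) in the transferred IRF4, transferred control, endogenous IRF4 and endogenous control libraries. Tnfrsf4 was higher in cycling cells of all 4, at 1.56, 1.59, 5.09 and 6.23 in the same order. Tnfrsf9 was lower in cycling transferred cells, at 0.738 (0.665 to 0.82) and 0.774 (0.74 to 0.809), and higher in cycling endogenous cells, at 3.06 (2.74 to 3.43) and 4.98 (4.35 to 5.71). Cycling cells were deeper in every library, with medians of 15462 to 26407 against 6719 to 8906 UMIs. Among deep cells the endogenous ratios were 2.21 and 3.78 for Tnfrsf4 and 1.38 and 2.2 for Tnfrsf9 in the IRF4 and control arms, and the Icos ratio of the endogenous control library was 0.919 (0.638 to 1.36).

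Shares of cells with a UMI were compared after each cell was thinned to 2000 UMIs. Tnfrsf4 was detected in 31.8% (27.5 to 36.3) and 28.9% (26.8 to 31) of transferred cells in the IRF4 and control arms, against 5.12% (4.18 to 6.21) and 7.85% (5.88 to 10.2) of endogenous cells. Without thinning the shares were 65.6%, 63.7%, 21.4% and 20.4%. Tnfrsf9 was detected in 25.4% and 26.3% of transferred and 13.3% (11.8 to 14.9) and 15.4% (12.7 to 18.4) of endogenous cells, and without thinning in 58.9%, 67.7%, 38.6% and 29%. Tnfrsf18 followed with 41.3% and 34.7% against 19.8% and 22.8%. Both transferred libraries thus lay above both endogenous ones for these 3 genes, with no overlap of intervals. Cd27 shares lay between 36.9% and 39.5% in all 4 libraries and their intervals overlapped. In B-like cells of the endogenous control library, which have a median of 3535 UMIs, the thinned shares were 0.519% for Tnfrsf4, 2.08% for Tnfrsf9 and 4.68% for Tnfrsf18, below every CD8 share.

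**Figure D4:**
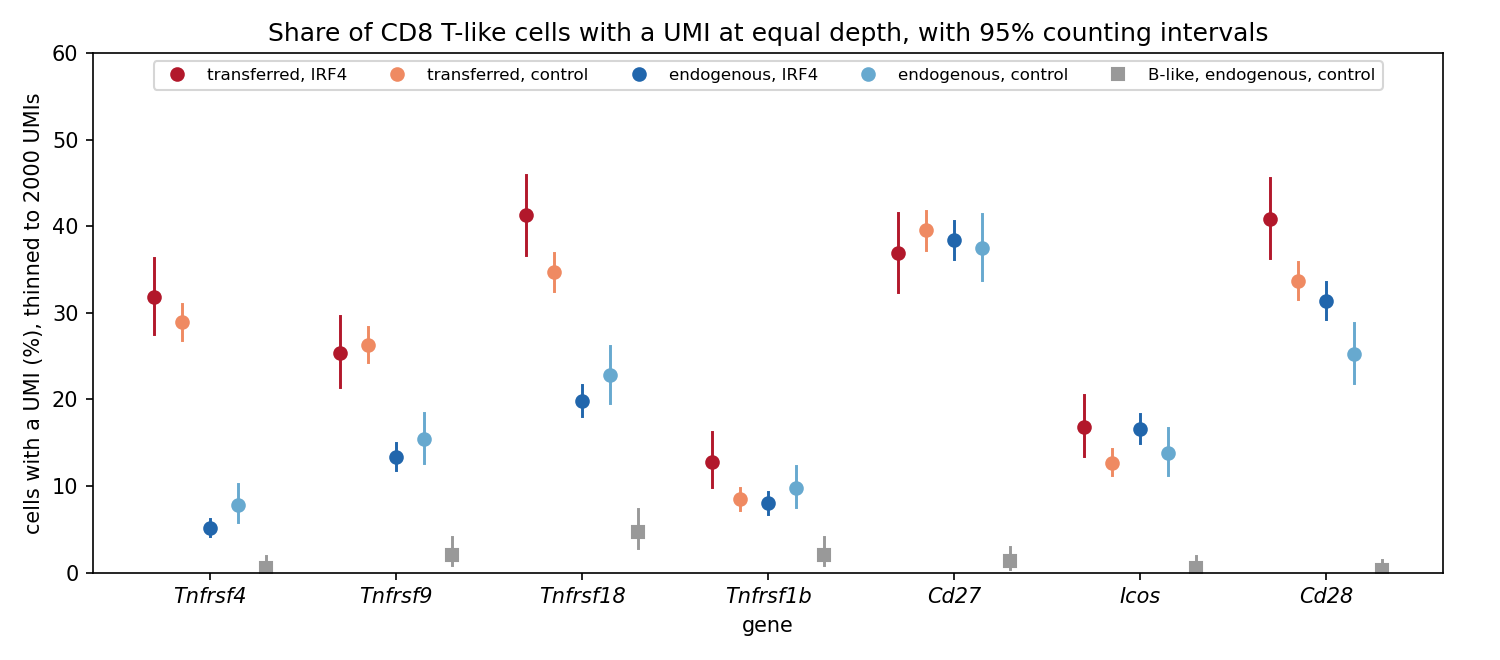
Share of cells with a UMI of each gene (%) after thinning to 2000 UMIs per cell, with 95% Clopper-Pearson intervals for counting error, for CD8 T-like cells of the 4 libraries and for B-like cells of the endogenous control library. B-like cells were chosen as background for Tnfrsf4, Tnfrsf9, Tnfrsf18, Icos and Cd28, not for Cd27 or Tnfrsf1b. Transferred cells stand above endogenous cells for Tnfrsf4 (31.8% and 28.9% against 5.12% and 7.85%), Tnfrsf9 and Tnfrsf18, while the Cd27 points lie together between 36.9% and 39.5%.

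The share of thinned cells with a Tnfrsf4 UMI was higher among those with a Tnfrsf9 UMI in each of the 4 libraries. In endogenous cells of the IRF4 arm Tnfrsf4 was detected in 16.5% (12.1 to 21.6) of cells with a Tnfrsf9 UMI and 3.38% (2.56 to 4.36) of those without. In the control arm the shares were 25.5% (17.2 to 35.3) and 4.64% (3.02 to 6.77). In transferred cells they were 43.5% and 27.8% in the IRF4 arm, 37.9% and 25.7% among control cells, so that the ratio of the shares was 1.56 and 1.48 against 4.88 and 5.5 in endogenous cells. Icos was detected in 15.7% and 16.7% of endogenous IRF4 cells with and without Tnfrsf9, and in 13.3% and 13.9% in the control arm. Cd28 shares were lower with Tnfrsf9 in all 4 libraries, at ratios of 0.736 to 0.831, with overlapping intervals in each. No thinned cell had UMIs of all 7 genes, and 25.0% of endogenous control cells and 8.39% of transferred IRF4 cells had none.

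Between the arms, levels in transferred CD8 T-like cells differed by less than 1.5-fold for every member, so that 0 of 7 were called higher and 0 lower. A call is a ratio of at least 1.5 either way on the log2 scale with a pseudocount of 1 CPM, among genes at 10 CPM or more in either library. Over all 7417 genes measured, 3.52% were called higher and 2.48% lower. Cd27 was at 185.8 CPM in the IRF4 arm, compared with 245.5 CPM in control cells, a ratio of 0.757 (0.722 to 0.792), the furthest below 1. Tnfrsf1b, at 53 and 41.3 CPM, and Cd28, at 245 and 191.3 CPM, were furthest above, with ratios of 1.28 (1.17 to 1.41) and 1.28 (1.23 to 1.34). Tnfrsf4 (319 and 285.7 CPM, 1.12), Tnfrsf9 (227.9 and 241.9 CPM, 0.942), Tnfrsf18 (259.6 and 250.7 CPM, 1.04) and Icos (59.8 and 56.7 CPM, 1.05) lay closer to 1. Without cells that had a cell cycle UMI, from 146 and 725 cells, Tnfrsf1b was at 1.74 and Cd28 at 1.54, past 1.5-fold. The share of all genes past 1.5-fold in these smaller subsets is not given here, so the 2 ratios stand without a background. In cells without a Tcf7 UMI the Cd28 ratio was 2 (1.83 to 2.19), against 1.13 (1.07 to 1.19) in cells with one. The cells without a Tcf7 UMI also had ratios past 1.5-fold for Tnfrsf1b, at 1.61 (1.34 to 1.92), and Icos, at 1.51 (1.28 to 1.79), and in the other direction for Tnfrsf9, at 0.647 (0.603 to 0.695). In cells without a Pdcd1 UMI Tnfrsf4 was at 1.72 (1.51 to 1.96). The ratios by Tcf7 and Pdcd1 stand without a background over all genes as well. Cells without a Tcf7 UMI were 231 of 453 in the IRF4 arm and 448 of 1860 in the control arm, so the subsets differed in their share of cells.

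In endogenous CD8 T-like cells Tnfrsf4 and Tnfrsf9 were lower in the IRF4 arm. Tnfrsf4 was at 69.2 and 111.8 CPM in the IRF4 and control arms, with a ratio of 0.619 (0.573 to 0.669), and Tnfrsf9 at 157.1 and 285.4 CPM, a ratio of 0.55 (0.524 to 0.578). These 2 of 7 members were called lower and 0 higher, beside 3.93% lower and 3.2% higher among all 7564 genes. For Tnfrsf9, 1 cell held 266 of 2399 UMIs in the control arm and 1 cell 122 of 5027 in the IRF4 arm. The counting interval does not take in such unevenness between cells. Tnfrsf18 stood at 0.738 (0.694 to 0.785) and Tnfrsf1b at 0.807 (0.727 to 0.897). Cd27 was level, at 211.3 and 210.5 CPM, with an interval of the ratio of 0.953 to 1.06. Icos, at 72.9 and 52.7 CPM, ratio 1.38 (1.25 to 1.53), and Cd28, ratio 1.2 (1.12 to 1.27), lay above 1. Without cells that had a cell cycle UMI, Tnfrsf18 and Tnfrsf1b turned to 1.06 (0.936 to 1.2) and 1.04 (0.846 to 1.29).

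A difference in the share of cells with Tnfrsf9 RNA was not detectable at these depths. At 2000 UMIs per cell the shares were 13.3% (11.8 to 14.9) and 15.4% (12.7 to 18.4), and at 4000 UMIs 22.8% (20.9 to 24.7) and 20% (16.9 to 23.4), intervals that overlapped at both depths. Both calls ended when each cell was weighted equally, at ratios of 0.69 for Tnfrsf4 and 0.694 for Tnfrsf9, and under a stricter gate, at 0.692 and 0.701 from 829 and 204 cells. Without cycling cells Tnfrsf9 was at 0.729 and Tnfrsf4 at 0.622. In cells with a Pdcd1 UMI Tnfrsf9 was at 0.456 (0.433 to 0.479) and Tnfrsf4 at 0.519 (0.48 to 0.561) of the control arm, and in cells without one Tnfrsf9 was at 1.08 (0.803 to 1.45) and Tnfrsf4 at 0.627 (0.351 to 1.13). In cells with a Tcf7 UMI the direction was the opposite, with Tnfrsf4 at 70.6 and 27.7 CPM, ratio 2.55 (2 to 3.29), and Tnfrsf9 at 102.7 and 63.5 CPM, ratio 1.62 (1.37 to 1.92). The control arm values there rest on 75 Tnfrsf4 and 172 Tnfrsf9 UMIs. Cells without a Gzmb UMI also had ratios above 1, at 2.01 (1.61 to 2.54) for Tnfrsf4 and 1.26 (1.06 to 1.5) for Tnfrsf9. With a Gzmb UMI the ratios were 0.457 and 0.432. Whether this difference between subsets is larger than that between replicate tumours was not tested.

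In Treg-like cells all 7 ratios of the IRF4 over the control arm lay between 1.06 and 1.45, and 0 of 7 members were called higher and 0 lower. Over all 8071 genes measured 9.71% were called higher and 13.4% lower, a wide background for classes of 113 and 58 cells. Tnfrsf4 was at 1783 and 1228 CPM, ratio 1.45 (1.34 to 1.58), and Cd28 at 309.3 and 215.8 CPM, ratio 1.43 (1.17 to 1.76). Both lay just below the threshold and were called higher under 2 alternatives: with at most 5% mitochondrial UMIs, at 1.52 each, and without the limits on dendritic and neutrophil markers in the gate, at 1.62 and 1.66.

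In CD4 conventional T-like cells (315 and 235 cells) 4 of 7 members were higher in the IRF4 arm and 0 lower, beside 11.2% higher and 6.81% lower among all 7734 genes. Icos was at 439.1 and 199.2 CPM, ratio 2.2 (1.91 to 2.55), and Tnfrsf4 at 316.5 and 137.6 CPM, ratio 2.3 (1.94 to 2.74). Tnfrsf9, at 110.2 and 51.7 CPM, and Tnfrsf1b, at 63.8 and 29.7 CPM, had ratios of 2.13 (1.6 to 2.86) and 2.15 (1.47 to 3.2). Tnfrsf18 at 1.46, Cd28 at 1.32 and Cd27 at 1.13 were not called. Few cells held much of the Tnfrsf9 and Tnfrsf4 RNA of this class: 50% of the Tnfrsf9 UMIs came from 4 cells in each arm, and 50% of the Tnfrsf4 UMIs from 9 and 12 cells, with 108 of 511 Tnfrsf4 UMIs of the IRF4 arm in 1 cell. Thinned shares of cells with a UMI overlapped between the arms for Tnfrsf9, at 8.25% (5.46 to 11.9) and 5.56% (2.99 to 9.31), for Tnfrsf4, at 24.1% (19.5 to 29.2) and 15.8% (11.4 to 21.1), and for Tnfrsf1b, at 11.7% (8.41 to 15.8) and 7.26% (4.29 to 11.4). For Icos they did not, at 47.6% (42 to 53.3) and 25.2% (19.8 to 31.3). The Treg gene Ikzf2 was at 189.5 and 114 CPM in this class, Il2ra at 12.4 and 8.36 CPM and Ctla4 at 163.5 and 84.4 CPM, with median depths of 4567 and 4934 UMIs per cell; the part of Treg cells without a Foxp3 UMI was not tested. After leaving out cells with an Ikzf2 or Il2ra UMI, an alternative added after seeing the data, Icos was at 2.75 and Tnfrsf4 at 1.85, while Tnfrsf9 was no longer called, at 1.08. When cells were gated after thinning to 2000 UMIs, Icos alone remained called, at 1.59, and Tnfrsf9 was at 0.967.

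In NK-like cells (917 and 505 cells) 6 members reached 10 CPM, and 0 of 6 were called higher and 0 lower, beside 2.09% and 2.36% of 7718 genes. The ratios ran from 0.839 (0.751 to 0.939) for Cd27 to 1.14 (0.93 to 1.4) for Tnfrsf1b, and the intervals of Tnfrsf18, Tnfrsf1b, Icos and Cd28 included 1. Tnfrsf9 was at 0.843 (0.76 to 0.935), but 1 cell of the control arm held 115 of its 596 UMIs there. Over the alternatives its ratio ran from 0.45 to 1.05. Tnfrsf4 had 17 UMIs in each library.

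**Figure D5:**
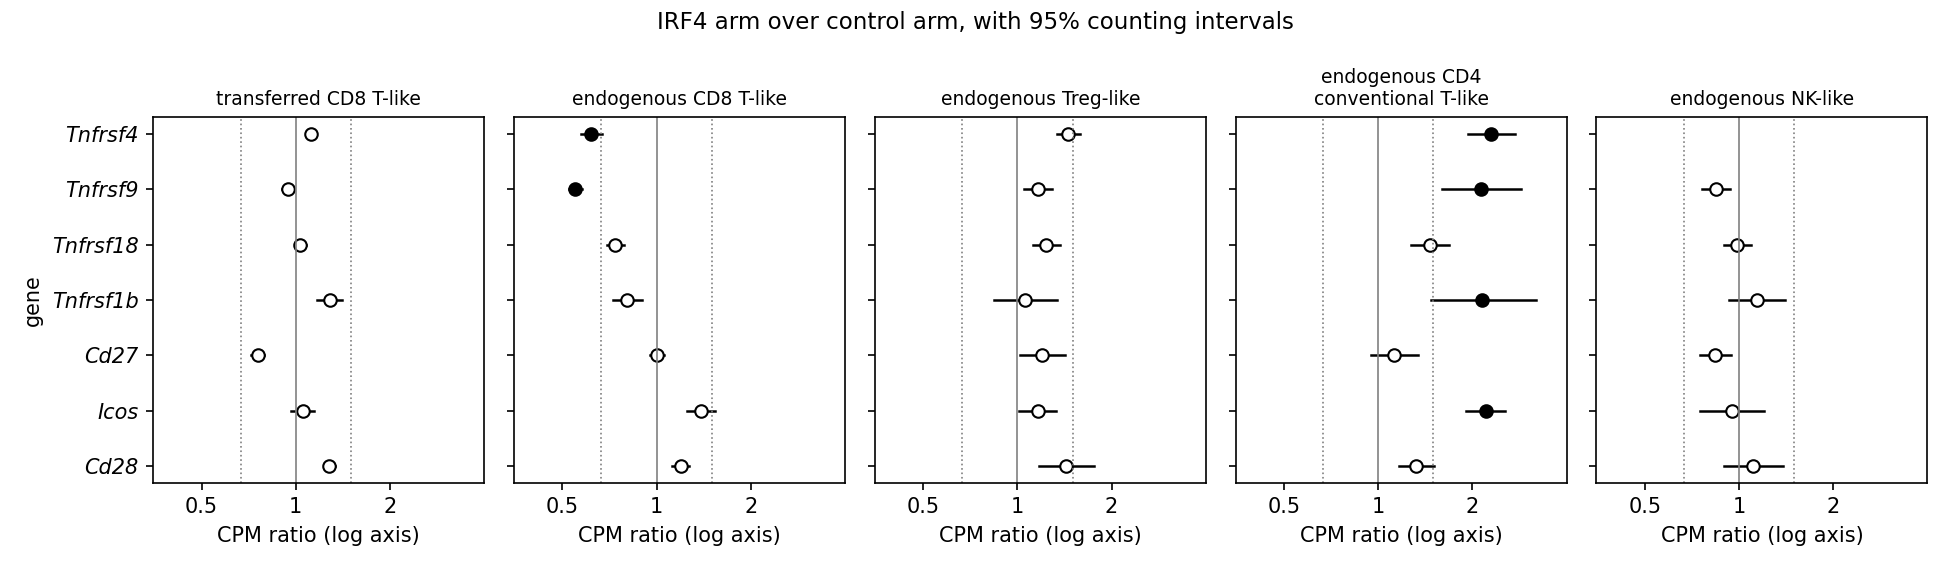
CPM ratio between the arms, IRF4 over control (log axis), for each gene in 5 cell classes, with 95% counting intervals; filled points were called, dotted lines mark 1.5-fold, and Tnfrsf4 in NK-like cells is left out as below 10 CPM. Filled points are Tnfrsf4 and Tnfrsf9 in endogenous CD8 T-like cells, at 0.619 and 0.55, and Tnfrsf4, Tnfrsf9, Tnfrsf1b and Icos in CD4 conventional T-like cells, between 2.13 and 2.3.

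Transferred CD8 T-like cells had more Tnfrsf4 and Tnfrsf18 than endogenous ones in both arms. In the control arm the ratio of transferred over endogenous cells was 2.55 (2.39 to 2.73) for Tnfrsf4 and 1.53 (1.45 to 1.62) for Tnfrsf18. These 2 of 7 members were called higher and 0 lower, beside 6.59% higher and 11.9% lower of 7690 genes. The Tnfrsf18 call ended when cells were gated on thinned counts, at 1.41, and with at most 5% mitochondrial UMIs, at 1.47. In the IRF4 arm the ratios were 4.61 (4.37 to 4.86) and 2.15 (2.05 to 2.25), again 2 of 7 higher and 0 lower, beside 6.06% and 10.4% of 7529 genes. Tnfrsf9 was at 0.847 (0.811 to 0.886) in the control arm and 1.45 (1.38 to 1.52) in the IRF4 arm. Weighted equally per cell it was at 1.68 and 2.3, above 1 in both arms, and without cycling cells at 3.7 and 5.05. Tnfrsf4 ranged from 1.99 to 7.49 in the control arm and from 3.77 to 13.4 in the IRF4 arm over the alternatives. Cd27 was at 1.17 and 0.879 and Icos at 1.07 and 0.82. The transferred and endogenous libraries were separate sorts, so the cell source and the library cannot be told apart.

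The ligand genes Cd70, Cd80, Cd86, Icosl, Tnfsf4 and Tnfsf9 had their highest level in mature dendritic-like cells of both arms. For Icosl, B-like cells overlapped them, at 43.7 CPM (26.3 to 68.2) and 45.3 CPM (35.2 to 57.5), and for Tnfsf9 the neutrophil-like cells of the control arm did, at 31.7 CPM (10.3 to 74.1). In those of the IRF4 and control arms Cd86, a ligand of CD28, was at 333.7 and 323.3 CPM, Cd80, its other ligand, at 82.5 and 56.7 CPM, Tnfsf9, the 4-1BB ligand, at 103.8 and 56 CPM, Cd70, the ligand of CD27, at 72.3 and 44.7 CPM, Icosl at 53.8 and 64.7 CPM and Tnfsf4, the OX40 ligand, at 24.1 and 28 CPM. Tnfsf18, the GITR ligand, had 0 UMIs in all 4 CD8 T-like classes and was at 0.359 CPM or less in monocyte or macrophage-like cells. Tnf, whose product binds TNF receptor 2, was at 73.2 CPM in mature dendritic-like cells of the IRF4 arm and 8.67 CPM in those of the control arm. Cd86 was also at 171.9 and 130.3 CPM in monocyte or macrophage-like cells. Among CD8 T-like cells Cd70 was lower in the IRF4 arm in transferred cells, at 11.9 and 23.4 CPM, ratio 0.51 (0.423 to 0.609), and in endogenous cells, at 5.53 and 12.6 CPM, ratio 0.438 (0.343 to 0.563). Tnfsf4 was lower in transferred cells, at 6.09 and 11.8 CPM. In all, 0 higher and 2 lower of 7 measured ligands were counted in transferred cells (median log2 ratio -0.24, beside 0.01 over all genes), and 0 and 1 of 6 in endogenous cells (-0.38 beside 0.02).

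The counts of these lists are read against the shares called among all genes, which were 3.52% higher and 2.48% lower in transferred cells and 3.2% higher and 3.93% lower in endogenous cells. Of receptors of the same families, some were higher and some lower. Ctla4, which competes with CD28 for its ligands and lies between Cd28 and Icos, was higher in the IRF4 arm in transferred cells, at 125.2 and 58.1 CPM, ratio 2.16 (2.02 to 2.3), and in endogenous cells, at 82.2 and 45.7 CPM, ratio 1.8 (1.61 to 2.01). The inhibitory receptor gene Btla and the death receptor gene Fas were lower in transferred cells, at 0.516 (0.441 to 0.6) and 0.443 (0.386 to 0.507). Of the CD28 family and death receptor list 1 of 5 measured genes was higher and 2 lower in transferred cells (median -0.04), and 1 of 4 higher and 0 lower in endogenous cells (0.28). Of the other costimulatory receptors 0 of 7 were called in transferred cells (median 0.03), and of 6 in endogenous cells Cd226, which binds nectin family ligands, was lower, at 66.6 and 114.7 CPM (median -0.30).

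Downstream of the TNF receptors, the TRAF and NF-kB list had 1 higher and 1 lower of 22 genes in transferred cells (median -0.08), near the share among all genes. Traf4 was at 39.3 and 24 CPM, ratio 1.64 (1.47 to 1.83), and Birc2, which encodes a ubiquitin ligase bound to TRAF2, at 47.1 and 77.2 CPM, ratio 0.611 (0.557 to 0.669). In endogenous cells 0 were higher and 4 lower of 22 (median -0.32): Traf1, an adaptor of 4-1BB, at 118.3 and 181.9 CPM, and the NF-kB subunit genes Nfkb2, Rel and Relb at ratios of 0.569, 0.61 and 0.653. Of the PI3K and CD28 signalling list 0 of 15 were called in either comparison (medians 0.12 and -0.09). Among survival targets Bcl2, which blocks apoptosis, was lower in both, at 79.1 and 137.4 CPM in transferred cells, ratio 0.576 (0.537 to 0.617), and at 93.7 and 156.7 CPM in endogenous cells, ratio 0.598 (0.56 to 0.639). Birc5, also a cell cycle gene, was higher in both, at 1.68 and 1.72, and Bcl2l11, which promotes apoptosis, was lower in endogenous cells, at 0.502 (0.457 to 0.552). That made 1 higher and 1 lower of 7 in transferred cells (median 0.06) and 1 higher and 2 lower of 7 in endogenous cells (median -0.26).

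The genes most like each member across 21 class sums, by Pearson's r of log2(CPM + 1) among 9960 genes, are given as a description, since the sums share 4 libraries. For Tnfrsf4 they were Il2ra (0.905), the high-affinity interleukin-2 receptor chain, Slamf1 (0.902) and Ikzf4 (0.895). Il2ra was highest in Treg-like cells, at 235.1 and 188 CPM, as Tnfrsf4 was, and stood at 80.6 and 136.7 CPM in mature dendritic-like cells. For Tnfrsf9 they were Mmd (0.937) and C1qtnf6 (0.93), and for Tnfrsf18 Isy1 (0.923), Icos (0.92) and Tesc (0.881). Tnfrsf1b was nearest to Stx11 (0.898), Rap1b (0.853) and Rarg (0.838). The genes nearest to Cd27 were Tox (0.962), Thy1 (0.959) and Gata3 (0.958), those nearest to Icos Podnl1 (0.967), Camk4 (0.951) and the T cell receptor chain gene Cd247 (0.936), and those nearest to Cd28 the T cell receptor adaptor gene Lat (0.96), Bcl11b (0.949) and Ccdc92 (0.94). Icos was the one member found among the genes nearest to another member.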

How the data were processed

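The authors deposited UMI counts for each gene in each barcode, in raw form. Per the submitters' processing notes they came from Cell Ranger 3.0.2, STAR 2.6 and the mm10 genome, and per the labels' protocols from Chromium 3' version 3 libraries. The annotation is not named by the sources used here. The labels' protocol also speaks of a single nucleus suspension, and barcodes were treated as cells. Groups came from the sample titles.

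Barcodes were kept from 1000 UMIs and 500 genes upward, with mitochondrial UMIs up to 10% (572, 6371, 2513 and 5676 in the transferred IRF4, endogenous IRF4, transferred control and endogenous control libraries). T cells needed at least 2 CD3 UMIs and, by limits on B, myeloid, dendritic and neutrophil markers, no second lineage; CD8 T-like cells had at least 2 Cd8a and Cd8b1 UMIs and no Cd4 or Foxp3 UMI, Treg-like cells a Foxp3 UMI, CD4 conventional T-like cells a Cd4 and no Foxp3 UMI, both with no CD8 UMI. NK-like cells had at least 2 Ncr1 and Klrb1c UMIs, B-like and dendritic-like cells at least 3 UMIs of their markers, monocyte or macrophage-like cells at least 3 of theirs and 3 of Lyz2, and neutrophil-like cells at least 20 S100a8 and S100a9 UMIs and 1 of Csf3r. Cells of mixed lineage stayed ungated (17.5% to 28.7% of kept cells), and a class was used from 50 cells. The cut-offs were set after marker levels had been seen, and the limits on dendritic and neutrophil markers after member values had been seen. No doublet caller was used; leaving out the 6% of cells with the most UMIs was an alternative.

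Intervals at 95% were exact Poisson for levels, conditional binomial (exact) for ratios and Clopper-Pearson for shares. With 1 library per group no test was made. The members, lists and alternatives were chosen with earlier results of these data known. Genes named beside the members are, per list, those past 1.5-fold in the CD8 comparisons between arms, at most 4 by size, and the 3 most alike genes of each member without ribosomal, mitochondrial, predicted and antigen receptor genes (1 of them is not reported here); ligands in dendritic-like cells were named after their values were seen. The calculations were tested on simulated data. Coordinates are from GENCODE for mm10. Tools were Python 3.11.15, numpy 2.4.6, scipy 1.17.1, pandas 2.3.3 and matplotlib 3.10.9.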

Additional observations from a re-analysis of the deposited data

How the results depend on the processing

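No paired analysis was possible because each group had 1 library. The number of members lower in endogenous CD8 T-like cells in the IRF4 arm, 2, became 0 with each cell weighted equally, 0 under the stricter gate and 1 without cells with a cell cycle UMI. In NK-like cells the number lower, 0, became 1 under the stricter gate (Tnfrsf9, 0.45) and 1 with no minimum CPM (Tnfrsf4, 0.528). In CD4 conventional T-like cells the number higher, 4, became 1 with gating on counts thinned to 2000 UMIs, where the Tnfrsf9 ratio turned from 2.13 to 0.967 in 222 and 138 cells. For Treg-like cells the number higher, 0, became 2 with at most 5% mitochondrial UMIs and 2 without the limits on dendritic and neutrophil markers, an alternative added after seeing the data. For transferred over endogenous cells of the control arm the number higher, 2, became 1 with the thinned gate and 1 with at most 5% mitochondrial UMIs, which also made 1 lower (Tnfrsf1b, 0.647). Without cells with a cell cycle UMI the number higher became 2 in transferred cells between arms (from 0) and 5 for transferred over endogenous cells of the IRF4 arm (from 2), and in the control arm 3 (from 2), as it was with each cell weighted equally. The share of all genes called under each alternative is not given here, so these counts of members stand without a background. The causes were not tested. Of the members' ratios under the alternatives, 444 stayed within the counting interval, 122 left it, and 1 called ratio changed direction. The stricter gate left under 50 cells in Treg-like and CD4 conventional T-like classes, as did the thinned gate and the removal of cycling cells in Treg-like cells, so those were not run. Levels in Treg-like cells rest on 58 and 113 cells, with median depths of 6687 and 7625 UMIs.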
